A study of Capra hircus with 29 samples.

Results

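The genes described here act in the control of meiotic arrest by cAMP in the growing oocyte. They were chosen by symbol: GPR3, GPR12, GNAS, ADCY3, ADCY9, PDE3A, PRKAR1A, PRKACA, PRKACB and AKAP1. Of these 10 symbols, 9 had a row among the 21343 genes of the deposited table, and because PDE3A was carried by 2 rows the symbols gave 10 rows. No row was named GNAS.

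In the mammalian oocyte the receptors GPR3 and GPR12 activate the stimulatory G protein alpha subunit, encoded by GNAS, without a known need for a ligand, and adenylyl cyclases such as ADCY3 and ADCY9 then make cAMP. cAMP releases the catalytic subunits of protein kinase A from their regulatory subunits, and the active kinase keeps CDK1 with cyclin B inactive through the inhibitory kinase WEE2 and the phosphatase CDC25B. PDE3A, the phosphodiesterase best known for breaking down oocyte cAMP, is held back by cGMP that enters from the granulosa cells through gap junctions until the luteinizing hormone surge, and anchoring proteins such as AKAP1, which sits on mitochondria, place protein kinase A within the cell.

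The samples were 29 pools of oocytes, profiled by RNA-seq, from Ji'ning grey goats, a Chinese breed known for large litters. The goats came from a high and a low fertility group, and oocytes were taken from large, medium and small follicles. The limits of the groups are not stated alike: the methods put goats with 3 kids or more per litter in the high and those with 2 or fewer in the low group, whereas the deposited description gives more than 3 and fewer than 2. The groups were HLO, LLO, HMO, LMO and LSO with 5 samples each and HSO with 4, where H and L stand for high and low fertility, the middle letter for the follicle size and O for oocyte. Per the methods, the oocytes of several goats were pooled by follicle size (stated in so many words for the high fertility group) and then divided into samples of 2 to 3 oocytes. The samples of a group are therefore portions of a common pool and not separate animals, and p-values measure only the spread between such portions, which may be in part technical and does not cover the spread between goats. The sources used here state no age, genetic modification or drug treatment of the animals. In such pools fewer cells of a type and less RNA per cell cannot be told apart.

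Most of the defining oocyte genes were present throughout. Of 15 oocyte marker rows, 10 exceeded 0.5 FPKM (fragments scaled by transcript length and by the mapped fragments of the library) in all 29 samples, and ZP3, which encodes a zona pellucida protein, averaged 1406 FPKM. NOBOX (mean 0.379 FPKM) and NLRP5 (0.303) did so in only 8 and 5 samples, and of 2 DAZL rows 1 did so in 21 and the other was listed at 0 throughout. Of 15 granulosa marker rows 4 exceeded 0.5 FPKM in all samples, among them STAR at a mean of 18.8 FPKM, whereas AMH and AMHR2 were listed at 0 in every sample and FSHR did not exceed 0.283 FPKM. The summed granulosa markers ranged from 12.3 to 62.4 FPKM per sample, the summed theca and stroma markers from 5.32 to 43.4 (mostly DCN and ACTA2, with INSL3 listed at 0 throughout) and the summed leukocyte markers from 0 to 0.672. FPKM summed to between 222697, in LMO replicate 2, and 490048 per sample.

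The 10 rows fell into 3 ranges of level. PRKAR1A, the type I regulatory subunit of protein kinase A, and PRKACB, one of its catalytic subunits, were the highest at 4.33 ± 2.33 and 4.15 ± 1.13 FPKM (mean ± SD, n = 29), at percentiles 81.7 and 81.2 of all genes by mean level. AKAP1 at 1.29 ± 0.535 and both PDE3A rows, with medians of 0.743 and 0.940 FPKM, formed the middle. Medians of GPR12, ADCY9, ADCY3 and GPR3 were 0.240, 0.316, 0.261 and 0.0879 FPKM, and PRKACA had a median of 0. FPKM are scaled by transcript length but do not correct for differences in capture between genes. Per the methods, oocyte mRNA was enriched with oligo(dT) beads. The orders given here are therefore of FPKM, and the RNA amounts may be ordered otherwise.

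Neighbours in this order often did not differ beyond their spread. PRKAR1A exceeded PRKACB in 16 of 29 samples, the 2 PDE3A rows changed places with one another (13 of 29), and GPR12 exceeded ADCY9 in 14 of 29. Between the ranges, PRKACB exceeded AKAP1 in 29 of 29 samples and the PDE3A row ENSCHIG00000025590 exceeded GPR12 in 24 and ADCY9 in 25. The other PDE3A row, ENSCHIG00000025977, exceeded GPR12 in 20 and was tied with it at 0 in 4. The plot of values by group gives each sample.

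**Figure D1:**
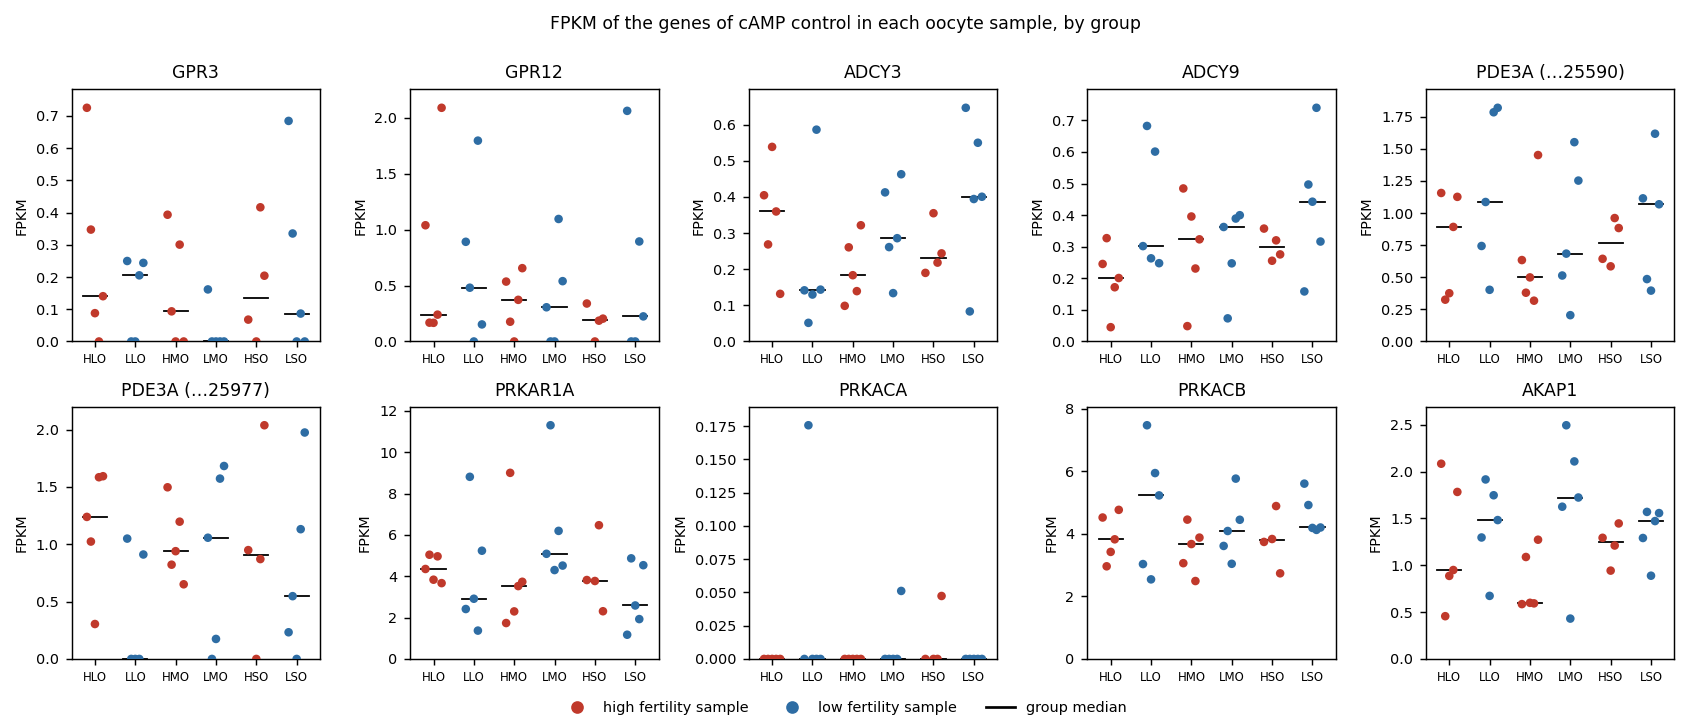
FPKM (linear axis from 0, scaled separately for each gene) of the 10 rows in each of the 29 oocyte samples, by group. Red points are high and blue points low fertility samples and lines are group medians; the points of the 6 groups overlap in every panel, and PRKACA lies at 0 in 26 samples.

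The receptors were scarce and uneven. GPR3 (ENSCHIG00000011308) was listed at 0 in 12 of 29 samples and reached 0.725 FPKM at most. In HLO it was at 0.725, 0.347, 0.0879, 0 and 0.141 FPKM in replicates 1 to 5, and in LMO it was at 0.162 in replicate 1 and at 0 in the other 4 samples. It exceeded 0.5 FPKM in only 2 of the 29 samples, HLO replicate 1 and LSO replicate 1.

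GPR12 (ENSCHIG00000007944), the close relative of GPR3, had no signal (listed at 0) in 7 samples and its maximum was 2.09 FPKM. It exceeded GPR3 in 19 samples and was tied with it at 0 in 6. In HLO it was at 1.04, 0.168, 0.167, 0.240 and 2.09 FPKM in replicates 1 to 5, and in LLO at 0.891, 0.481, 0, 1.80 and 0.153, so that both groups held high and low samples. GPR6, which belongs to the same receptor family, was listed at 0 in 29 of 29 samples; it was added here after its values were seen. Other receptors that can raise cAMP were far higher: HTR7, a serotonin receptor, ranged from 1.74 to 98.6 FPKM and exceeded GPR12 in 28 of 29 samples, and ADORA2B, an adenosine receptor, ranged from 0.807 to 38.7 FPKM and exceeded it in 29 of 29. Of 17 rows in the receptor list, which also holds receptor kinases and arrestins, these 2 alone exceeded 0.5 FPKM in every sample, and 13 never did.

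The G protein that links receptor and cyclase could not be followed by symbol, since no row was named GNAS. The row LOC102188874 (ENSCHIG00000011782), which the deposited annotation describes as a Gs alpha subunit, was not counted among the 10 rows. It averaged 1.40 ± 1.21 FPKM (SD, n = 29) and ranged from 0.127 to 6.60, the last in HLO replicate 2. RGS2, a regulator of G protein signalling, was the highest of the G protein list at 474 ± 253 FPKM (SD, n = 29), followed by the gamma subunit GNG5 at 463 ± 180. RGS2 and GNG5 each have 2 rows, and reads shared between such rows are a source of uncertainty.

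Both adenylyl cyclases were low but present in all samples. ADCY9 (ENSCHIG00000011588) averaged 0.324 ± 0.168 FPKM and ADCY3 (ENSCHIG00000025812) 0.290 ± 0.163 (SD, n = 29), and ADCY9 was the higher in 19 of 29 samples. ADCY2, a further member of the family, averaged 0.668 ± 0.302 and exceeded ADCY3 in 27 samples and ADCY9 in 23. No row of the cyclase list exceeded 0.5 FPKM in all 29 samples.

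PDE3A had 2 rows that did not behave as one. ENSCHIG00000025590, described in the table as phosphodiesterase 3A, was above 0 in all samples (0.205 to 1.82 FPKM), whereas ENSCHIG00000025977, which has no description, was listed at 0 in 6 samples and reached 2.04. In LLO the described row was at 0.743, 1.09, 0.402, 1.78 and 1.82 FPKM in replicates 1 to 5 and the other at 1.05, 0, 0, 0 and 0.911. The order of the samples therefore differed between the 2 rows, and LLO replicate 4 was among the highest in one and at 0 in the other.

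Together the 2 PDE3A rows made up 9.04 ± 4.61% (SD, n = 29 samples) of the summed FPKM of 16 genes of cAMP-degrading phosphodiesterases. PDE7A, a cAMP-specific phosphodiesterase, made up 55.2 ± 11.9% and exceeded each PDE3A row in 29 of 29 samples, at 11.6 FPKM on average. PDE11A made up 7.41 ± 4.76% and PDE3B, the sister gene of PDE3A, 7.24 ± 3.47%. If both PDE3A rows are parts of 1 gene, their sum may count it more than once. Each alone had a lower mean (0.860 and 0.864 FPKM) than PDE11A (1.37) and PDE3B (1.35). PDE3B exceeded the 2 PDE3A rows in 24 and 25 of 29 samples; it and PDE5A, next, were added here after their values were seen. PDE5A, which breaks down cGMP rather than cAMP, averaged 4.50 FPKM and exceeded the described PDE3A row in 29 of 29 samples.

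Within protein kinase A, PRKACB made up nearly all of the summed FPKM of both catalytic genes. PRKACB (ENSCHIG00000024391) was between 2.49 and 7.47 FPKM in all 29 samples, while PRKACA (ENSCHIG00000016501) was listed at 0 in 26 samples and at 0.176, 0.0511 and 0.0473 FPKM in LLO replicate 2, LMO replicate 5 and HSO replicate 5. PRKACB was the higher in 29 of 29 samples and made up 97.7 to 100% of the sum of both genes per sample.

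Among the regulatory subunits, which hold the kinase inactive until cAMP binds, PRKAR1A (ENSCHIG00000011507) was second. PRKAR2A, a type II subunit, made up 60.3 ± 9.10% of their summed FPKM and PRKAR1A 25.7 ± 6.95% (SD, n = 29 samples), while PRKAR2B ranged from 6.71 to 37.0%. PRKAR2A exceeded PRKAR1A in 29 of 29 samples, and PRKAR1A exceeded PRKAR2B in 26. The log2 ratio of PRKACA plus PRKACB to PRKAR1A ranged from -1.47 in LMO replicate 2 to 2.26 in LSO replicate 1, with a median of -0.00468.

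AKAP1 (ENSCHIG00000024545) was neither the highest nor among the lowest of the anchoring protein genes: of the other 18 rows of that list, 5 had a higher mean FPKM and 13 a lower one. AKAP11, which binds type II regulatory subunits, averaged 12.1 FPKM and AKAP9, which is found at the centrosome and Golgi, 4.95 FPKM, and both exceeded AKAP1 in 29 of 29 samples. AKAP1 ranged from 0.431 FPKM in LMO replicate 3 to 2.49 in LMO replicate 2. Its lowest and highest samples thus belonged to the same group.

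**Figure D2:**
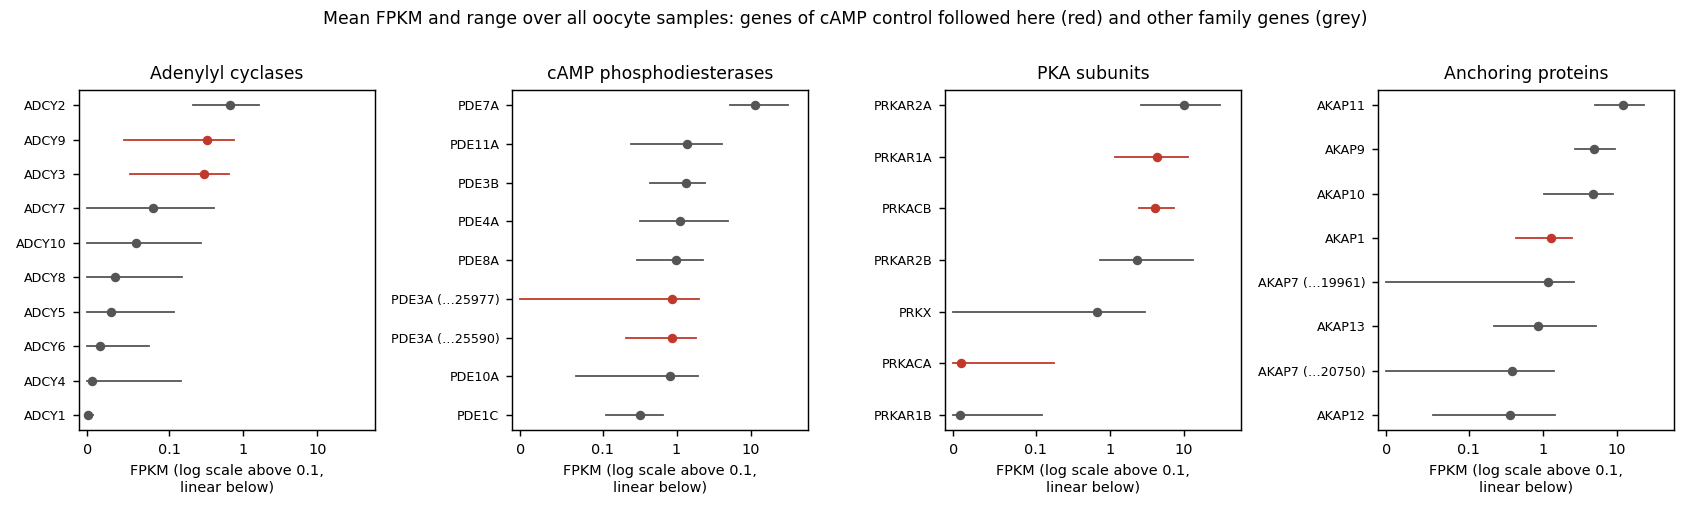
Mean FPKM (points) and lowest to highest sample (lines) over the 29 oocyte samples for the adenylyl cyclases, the larger cAMP phosphodiesterases, the subunits of protein kinase A with PRKX, and anchoring proteins; the axis is logarithmic above 0.1 FPKM and linear below. Genes followed here are red; PDE7A, PRKAR2A and AKAP11 lie above the red genes of their panels at means of 11.6, 10.2 and 12.1 FPKM.

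The steps around this module were also measured, by lists of genes for each step. The 2 highest of each further list were GMPS (41.6 FPKM) and IMPDH2 (10.9), which make GMP, in the cGMP list; ATF1 (7.68) and CREB1 (4.13), transcription factors that protein kinase A phosphorylates; CCNB2 (551) and CCNB1 (172), the B-type cyclins that partner CDK1; and GJC1 (6.28) and GJA4 (1.22), gap junction proteins. GJA4 is the connexin known for coupling oocyte and granulosa cells. WEE2, the oocyte form of the inhibitory kinase, averaged 42.5 FPKM and exceeded WEE1 (0.0863 FPKM) in 29 of 29 samples; this pair was added after its values were seen.

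Whether high and low fertility oocytes differed in these genes was tested at each follicle size on log2(FPKM + 1), on which scale the fold changes of low genes are understated, keeping a gene where 4 or more of the compared samples exceeded 0.5 FPKM. Of the 10 rows 6 entered the test in large and medium follicles (GPR12, both PDE3A rows, PRKAR1A, PRKACB and AKAP1) and 5 in small ones, where GPR12 fell out. By limma's moderated test with Benjamini-Hochberg adjustment 0 of them passed an adjusted p of 0.05 at any size, against 0% of all genes tested for HLO and LLO, 0.0715% for HMO and LMO and 0.0119% for HSO and LSO. At an unadjusted p of 0.05, 1, 0 and 0 passed, against 4.14%, 8.67% and 4.41% of all genes. By the exact Wilcoxon test the counts at that limit were also 1, 0 and 0, and 0 passed after adjustment. The median difference, high minus low, over the rows tested was -0.05, -0.17 and -0.08 on the log2 scale, beside -0.09, -0.07 and -0.01 over all genes.

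The row that passed at an unadjusted p was PDE3A ENSCHIG00000025977 in large follicles. It was at 1.24, 1.02, 0.305, 1.58 and 1.59 FPKM in HLO replicates 1 to 5, against the LLO values given above, 3 of which were 0. The log2 difference was 0.67 with an SE of 0.287 (limma adjusted p = 0.828; exact Wilcoxon p = 0.0476), and the ranges of the groups overlapped. The unadjusted limma p rose above 0.05 when any of HLO replicates 1, 2, 4 and 5 or LLO replicates 2, 3 and 4 was left out. With array weights the difference was 0.23 and also missed that limit. The described PDE3A row had a difference of -0.27 with an SE of 0.267 in the same comparison (limma adjusted p = 0.837), the opposite sign.

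In medium follicles the lowest p among these genes was that of AKAP1. HMO samples were at 0.585, 1.09, 0.599, 0.593 and 1.27 FPKM and LMO samples at 1.63, 2.49, 0.431, 2.11 and 1.72. All HMO samples were below 4 of the 5 LMO samples, and LMO replicate 3 was below all of HMO. The difference was -0.51 with an SE of 0.25 (limma adjusted p = 0.596); with array weights, which give samples far from their group less weight, it was -0.68 with an adjusted p of 0.0350. That setting called 1011 of the 8390 genes, against 6 without weights, and 1 of the 6 rows of the cAMP genes. The limma or Wilcoxon adjusted p over 19 alternative settings ranged from 0.0350 to 0.957.

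PRKAR1A was at 1.74, 9.00, 2.30, 3.52 and 3.73 FPKM in HMO and at 5.09, 11.3, 4.30, 6.19 and 4.51 in LMO. Replicate 2 was the highest of both groups. The log2 difference of -0.61 had an SE of 0.381 (limma adjusted p = 0.650). In large and small follicles the differences had the other sign, at 0.23 ± 0.41 and 0.38 ± 0.372 (SE), and neither passed the test.

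PRKACB varied the least of these genes for its level and differed by -0.19, -0.20 and -0.24 between high and low fertility in large, medium and small follicles, with SEs of 0.363, 0.252 and 0.259. The 3 differences had 1 sign and were each smaller than their SE. GPR12 differed by 0.05 and -0.01 in large and medium follicles, and its sign changed with the scaling in medium ones.

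**Figure D3:**
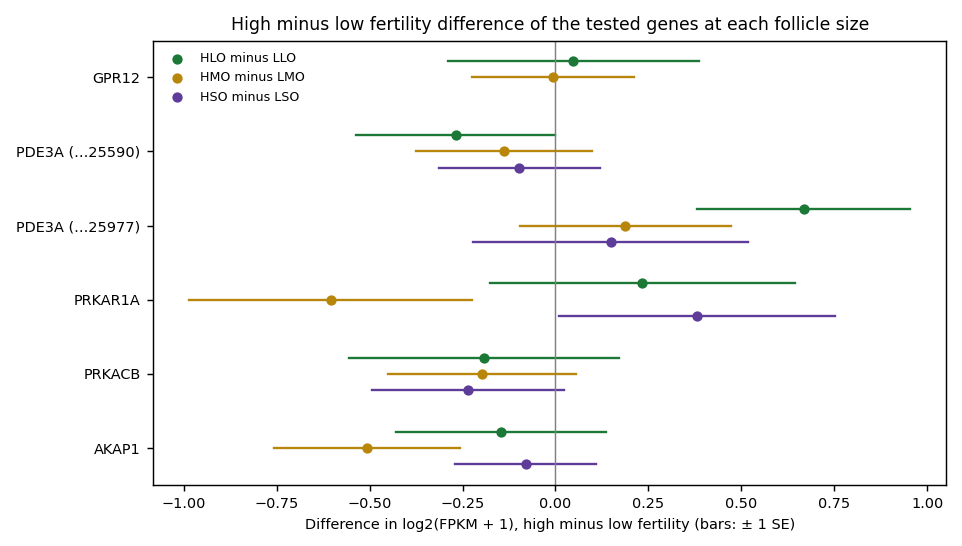
Difference in log2(FPKM + 1), high minus low fertility, for the 6 rows tested at each follicle size, with bars of 1 SE on each side. The largest difference is that of PDE3A ENSCHIG00000025977 in large follicles (0.67); GPR12 was not tested in small follicles.

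The rows below the filter are given without a place in the counts. ADCY9 was at 0.245, 0.327, 0.0453, 0.172 and 0.201 FPKM in HLO and at 0.302, 0.682, 0.263, 0.601 and 0.248 in LLO. Fitted with no filter, its difference was -0.24 with an SE of 0.113 (limma adjusted p = 0.838). The groups overlapped through HLO replicate 2. GPR3 differed by 0.12, 0.15 and -0.04 in the 3 comparisons with no adjusted p under 0.684, and ADCY3 by 0.16, -0.12 and -0.16 with none under 0.695. PRKACA, at 0 in nearly all samples, gave differences of at most 0.05 in size.

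Over all stages, with follicle size in the model, 7 of the 10 rows were tested (ADCY3 also passed the filter there). By limma 0 of 7 passed an adjusted p of 0.05, against 0.0103% of all genes, and 0 of 7 an unadjusted one, against 9.99%. The lowest p was that of AKAP1, at a difference of -0.25 with an SE of 0.134 (limma adjusted p = 0.533): its median was 1.02 FPKM in 14 high and 1.56 in 15 low fertility samples, with ranges of 0.456 to 2.08 and 0.431 to 2.49. PDE3A ENSCHIG00000025977 differed by 0.34 and ENSCHIG00000025590 by -0.17 (adjusted p of 0.545 and 0.676). No interaction of stage and fertility passed for any of the 7 (0 adjusted and 0 at an unadjusted p of 0.05, against 0% and 7.89% of all genes).

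Levels did not differ detectably between follicle sizes. In the F-test over stages 0 of 7 rows passed adjusted or unadjusted, against 0% and 1.66% of all genes. The largest stage difference of the 7 rows was that of PRKAR1A between medium and small follicles, 0.41 on the log2 scale.

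The rest of the pathway was tested from the same fits. Of 76, 73 and 74 rows of the lists tested in large, medium and small follicles, 0 passed the adjusted limit and 2, 2 and 3 the unadjusted one (2.63%, 2.74% and 4.05%, beside the shares of all genes above). In large follicles these were PPP1R1A, an inhibitor of protein phosphatase 1 that protein kinase A activates (difference 0.68), and PRKX, a kinase related to PRKACB (0.60). PRKX was at medians of 0.757 FPKM in HLO and 0.126 in LLO, and in small follicles its sign was the other way (-0.50). In medium follicles they were YWHAB, a 14-3-3 protein (-0.78), and PDE11A (0.58), and in small ones PRKG2, a cGMP-dependent kinase (0.81), and GUCY1B3, a subunit of soluble guanylyl cyclase (-0.69), besides PRKX.

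Over all stages 10 of 86 list rows had an unadjusted p under 0.05, 11.6% against 9.99% of all genes, and 0 passed the adjusted limit. Of the 86 rows, 2 passed the unadjusted limit as higher in high fertility oocytes and 8 as lower. The shares among all genes tested were 3.39% and 6.59%. The 5 with the lowest p were AKAP12 (-0.31), PDE7A (-0.58), ARFGEF2 (-0.36), GUCY1B3 (-0.34) and CREBBP (-0.47), with a limma adjusted p of 0.423 to 0.437. PDE7A, the main cAMP phosphodiesterase by level, had a median of 8.41 FPKM in the 14 high and 10.7 in the 15 low fertility samples, with overlapping ranges of 5.34 to 15.1 and 6.16 to 31.9. PRKAR2B, also among the 8, had medians of 1.49 and 2.23 FPKM (-0.50).

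Many more genes differed by the replicate number in the sample labels than by fertility or follicle size. A test of the 5 replicate numbers, with the 6 group means in the model, was added after the data were seen; what the numbers stand for is not recorded. By limma's F-test 50.5% of all genes passed an adjusted p of 0.05, and 4 of 7 rows of the cAMP genes did, which is near that background and is no finding about these genes; at an unadjusted p it was 5 of 7, against 58%. They were PDE3A ENSCHIG00000025977 (adjusted p = 0.00284), PDE3A ENSCHIG00000025590 (0.00406), PRKAR1A (0.00994) and GPR12 (0.0104). With median-of-ratios factors the described PDE3A row no longer passed (adjusted p = 0.0986) and PRKACB did (0.0345).

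PDE3A ENSCHIG00000025590 was at 0.205 to 0.585 FPKM in the 6 samples numbered 3 and at 0.883 to 1.82 in the 6 numbered 5. Number 3 had the lowest and number 5 the highest mean of this row. The share of all genes with such a gap between their lowest and highest number was not counted. GPR12 was listed at 0 in 5 of the 6 samples numbered 3 and at 0.167 in the other. GPR3, which was below the filter, was also listed at 0 in 5 of the 6 samples numbered 3. It was above 0 in all 6 numbered 1. Fitted with no filter, GPR3 had an adjusted p of 0.0467 (limma F-test over replicate numbers), a setting that called 4694 genes. PRKAR1A was at 4.87 to 11.3 FPKM in the 5 samples numbered 2 and at 2.30 to 4.30 in the 6 numbered 3. Samples numbered 2 overlapped those numbered 1 (up to 5.09 FPKM), 4 (up to 6.47) and 5 (up to 5.23). The share of all genes with 2 numbers apart in this way was not counted either. Samples of each number came from both fertility groups and all sizes, and 50.5% of all genes tested passed the F-test of replicate numbers.

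Along the first principal component of all tested genes, which held 39.0% of the variance, every sample numbered 2 or 3 had a negative score and every sample numbered 5 a positive one. Scores of samples numbered 1 ran from -5.43 to 51.2 and of those numbered 4 from -55.6 to 49.7, so both held either sign. The sign of the component was set to make the mean of number 5 positive. The summed oocyte markers had medians of 2228 and 2046 FPKM in samples numbered 2 and 3 and of 5223 in those numbered 5, the summed granulosa markers medians of 28.8, 32.0 and 52.1, and the summed theca and stroma markers medians of 7.74, 7.66 and 27.3. In samples numbered 1 and 4 the oocyte medians were 4743 and 3984 FPKM. The granulosa medians there were 36.7 and 39.5, and those of theca and stroma 20.8 and 11.9. The part of these markers in the differences by number was not tested.

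**Figure D4:**
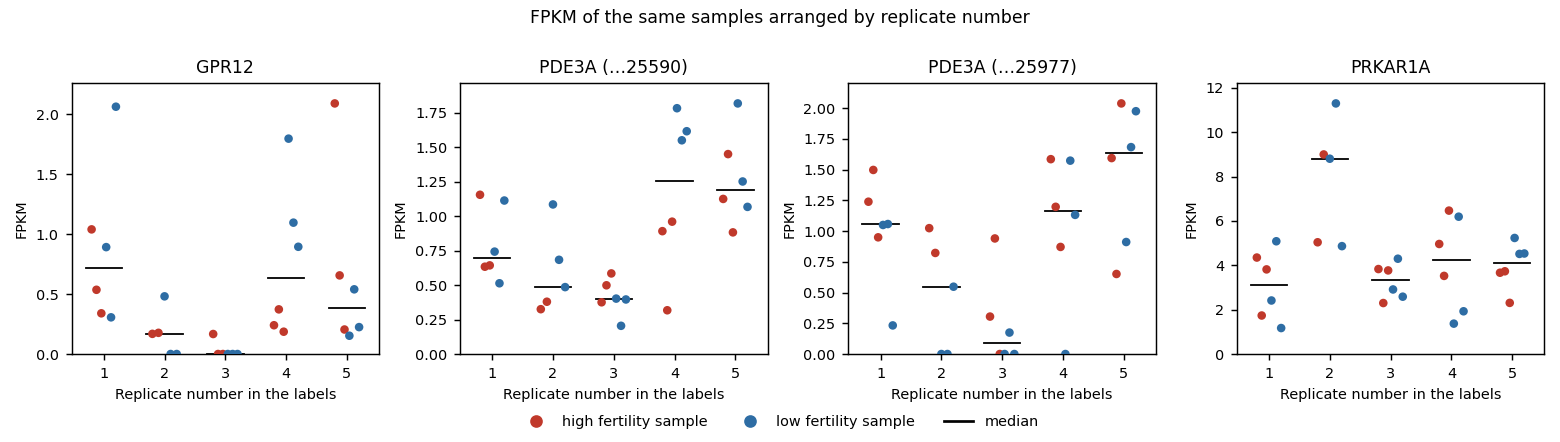
FPKM (linear axes from 0) of GPR12, the 2 PDE3A rows and PRKAR1A in the 29 samples arranged by the replicate number in the labels, with red high and blue low fertility samples and lines at the medians. Samples numbered 3 lie at or near 0 for GPR12, and the 3 highest PRKAR1A values belong to number 2.

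Pairs of these genes that varied together over the 29 samples were sought among the 21 pairs of 7 tested rows, on log2(FPKM + 1). By permutation 4 pairs passed after adjustment over the pairs: PDE3A ENSCHIG00000025590 with AKAP1 (Pearson r = 0.67, Spearman rho = 0.69), PRKACB with AKAP1 (0.66, 0.66), PDE3A ENSCHIG00000025590 with PRKACB (0.63, 0.65) and GPR12 with PDE3A ENSCHIG00000025590 (0.63, 0.65). Each had an unadjusted permutation p of at most 0.00027 and an adjusted one of at most 0.00142. The permutation exchanged all 29 samples freely, so these p-values do not allow for samples that share a group or a replicate number. Without the 2 samples farthest from the median of the first gene r was 0.68, 0.61, 0.56 and 0.67, and as deviations from the means of the replicate numbers it was 0.63, 0.63, 0.77 and 0.49. Within the single replicate numbers of 6 samples (1, 3, 4 and 5), r was above 0 in each for PRKACB with AKAP1 (0.46, 0.54, 0.92 and 0.42) and for the described PDE3A row with PRKACB (0.77, 0.43, 0.87 and 0.70). It changed sign for that row with AKAP1 (0.41, 0.64, 0.93 and -0.26) and with GPR12 (0.87, -0.11, 0.76 and -0.14). GPR12 was listed at 0 in 5 of the 6 samples numbered 3, so the r of -0.11 rests on the 1 other sample.

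These correlations were moved by the scaling of the libraries. With median-of-ratios factors r of the 4 pairs was 0.43, 0.51, 0.22 and 0.42. The highest r of all pairs was then that of PRKAR1A with PRKACB, at 0.63 against 0.24 before, so the scaling also changed the order of the pairs. Without these factors, values as high as those of the 4 pairs were also common among all genes. Of the genes tested, 12.3%, 4.97%, 17.0% and 8.61% had a rho with the first gene of the pair at least as high. The 2 PDE3A rows correlated weakly with one another (r = 0.24, rho = 0.26, adjusted permutation p of 0.347 and 0.275), and as deviations from the means of the replicate numbers r was -0.51.

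The genes whose pattern over the 29 samples was most like that of GPR3, among 8234 genes whose symbol had 1 row, were MPC1 (rho = 0.77), LOC108633413 (0.74) and SHD (0.72). GPR3 itself was listed at 0 in 12 of these samples, which therefore tie in its ranks. The depth of the libraries and the replicate numbers are shared by all of these values, and no test was made of them.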

How the data were processed

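Oocyte RNA-seq values of 29 samples were taken from 1 deposited table of FPKM per gene. Per the methods, the authors aligned reads to the goat genome, kept unique matches, removed duplicates with picard and computed the FPKM with Cufflinks 2.2.1 (submitters' processing notes) on the Ensembl annotation; the genome build is not given in the sources used here. Columns were matched to samples by name, and 1 column that matched no sample was not used. FPKM are not counts and read depth was not analysed here, so no counting interval is given and genes at 0 are called listed at 0. No 2 samples held identical values. The granulosa cell samples were not analysed here.

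The 10 symbols and the lists for each step of the pathway were chosen with earlier results of these data known. Genes named from a list are its 2 highest by mean FPKM and, per comparison, up to 5 with an unadjusted p under 0.05; the 3 genes most like GPR3 were named by rho, and those most like PDE3A are not reported here. limma 3.58.1 in R 4.3.3 (moderated test with trend) was used on log2(FPKM + 1) for high against low fertility, where 4 or more of the compared samples exceeded 0.5 FPKM: 8328 genes in large, 8390 in medium, 8376 in small follicles and 9692 over all stages, with Benjamini-Hochberg adjustment over all of them. Stages were compared by an F-test with fertility as a covariate, and the interaction by 6 group means. Correlations were tested by permutation with 100000 resamples. Python 3.11.15 with numpy 2.4.6, pandas 2.3.3 and scipy 1.17.1 was used for levels and correlations and matplotlib 3.10.9 for figures.

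The procedure was tested on simulated data with changes of 2 on the log2 scale, in genes with a mean log2(FPKM + 1) above 1. Of these, 48.5%, 82.0% and 71.0% passed the adjusted limit in large, medium and small follicles. The shares were 98.5% over all stages, 95.0% for the F-test over stages and 45.5% for the interaction. Of the unchanged genes, 7, 8 and 11 passed in large, medium and small follicles. Smaller changes, and changes in genes of lower level, were not simulated. Values were drawn separately for each gene and sample, so differences shared across the genes of a library were not simulated either. Alternatives were array weights, a replicate block, median-of-ratios or quantile scaling, a pseudocount of 0.1, a limit of 1 FPKM or none, 1 fit over all samples, the exact Wilcoxon test and each sample left out in turn; the test of replicate numbers was added after the data were seen.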

Additional observations from a re-analysis of the deposited data

Results flagged for a closer look

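Of 57 groups of values of these genes tested, 8 held 1 sample far from the others by Dixon's criterion. In 4 of the 8 all other samples were at 0, so that any value above 0 meets the criterion, and the usual rate of about 1 in 20 groups by chance does not apply to groups with many values at 0. PRKAR1A was at 9.00 FPKM in HMO replicate 2 (others at most 3.73) and at 11.3 in LMO replicate 2 (others at most 6.19), so that in both groups of medium follicles the sample numbered 2 stood apart. PDE3A ENSCHIG00000025590 was at 1.45 FPKM in HMO replicate 5, where the others were at most 0.634. ADCY3 was at 0.586 FPKM in LLO replicate 4, where the others were at most 0.143. GPR3 was at 0.162 FPKM in LMO replicate 1 and at 0 in the others. PRKACA was at 0.176 FPKM in LLO replicate 2, 0.0511 in LMO replicate 5 and 0.0473 in HSO replicate 5, and at 0 in the other samples of these groups.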

How the results depend on the processing

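The cAMP genes had 1046 values over the fertility and stage comparisons and their alternatives. Of these, 1013 kept their side of the adjusted limit and, where they had a sign, their direction. In 32 the sign turned, and 1 came to pass (AKAP1 in medium follicles with array weights). The F-tests over stages and for the interaction give no sign, so the 32 are out of fewer than 1046 signed values. The 300 alternative values of their levels moved by less than the spread between samples. The causes were not tested.

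The sign turned for GPR12 in HLO and LLO with array weights (-0.30) and in HMO and LMO with a pseudocount of 0.1 (0.20), median-of-ratios factors (0.055) and quantile normalization (0.028). It turned for PDE3A ENSCHIG00000025977 with array weights in medium follicles (-0.23) and over all stages (-0.17), and for ADCY3 over all stages with median-of-ratios factors (0.016). PRKAR1A over all stages was at -0.012, and at 0.015 with a pseudocount of 0.1, 0.056 with median-of-ratios factors, 0.048 with quantile normalization and 0.037 with array weights.

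With 1 sample left out, differences ranged from -0.11 to 0.16 for GPR12 in HLO and LLO, -0.11 to 0.094 for GPR12 in HMO and LMO, -0.0013 to 0.51 for PRKAR1A in HLO and LLO, and -0.096 to 0.079 for PRKAR1A over all stages. For PDE3A ENSCHIG00000025977 they ranged from -0.015 to 0.34 in medium and -0.097 to 0.44 in small follicles, and for ENSCHIG00000025590 from -0.21 to 0.021 in small ones.

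Counts over all genes at the adjusted limit moved more. With array weights they were 2, 1011 and 1 in large, medium and small follicles (0, 6 and 1 without), 691 over all stages (1), 231 for the interaction (0) and 7704 for the replicate numbers (4890). In medium follicles they were 13 with median-of-ratios factors, 14 with quantile normalization, 3 in 1 fit over all samples and 0 with no filter or the exact Wilcoxon test. In small follicles the count was 2 with a pseudocount of 0.1 and 0 in 1 fit over all samples or by the exact Wilcoxon test. Over all stages it was 0 with no filter, median-of-ratios factors or quantile normalization, and for the interaction 2 with either scaling. With 1 sample left out the counts ranged from 0 to 1, 0 to 160 (the highest without HMO replicate 2), 0 to 2, 0 to 2 over all stages and 0 to 59 for the interaction (without HMO replicate 2). Of 21 correlations, 7 passed as deviations from the means of the replicate numbers, against 4.

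Samples with the same replicate number are not said to share an animal or day. Over pairs of such samples the median correlation of deviations from the group means was 0.49, 0.47 and 0.30 in large, medium and small follicles, but only 4 of 5, 4 of 5 and 2 of 4 pairs exceeded 0.1, and 3, 3 and 1 pairs correlated best with their own number. With the replicate number as a block the counts were 1, 127 and 0, 70 for the interaction and 1 over all stages; PRKAR1A over all stages was at 0.045, and 0 of the cAMP genes passed.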
